A study of Mus musculus with 4 samples.

Results

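Cells keep their cholesterol within narrow limits by balancing synthesis against uptake, export and storage, and the 32 genes described here cover that balance. They were chosen by name, and all 32 were found among the 22620 genes of the deposited tables. The set holds 8 genes of the mevalonate steps (Acat2, Hmgcs1, Mvk, Pmvk, Mvd, Idi1, Fdps and Ggps1) and 11 of the sterol steps (Fdft1, Sqle, Lss, Cyp51, Tm7sf2, Msmo1, Nsdhl, Hsd17b7, Ebp, Sc5d and Dhcr7). These 19 are called the synthesis genes below. A further 5 control the SREBP transcription factors (Insig1, Insig2, Srebf1, Srebf2 and Scap), 3 carry sterol between membranes or out of lysosomes (Stard4, Npc1 and Npc2), and 5 serve efflux and storage (Abca1, Abcg1, Nr1h3, Soat1 and Mylip). The study profiled CD45+ cells, that is leukocytes, of tumours of MC38, a mouse line of colon carcinoma cells, in WT mice and in knockout mice, called KO here. There were 2 libraries per genotype, WT 1, WT 2, KO 1 and KO 2. The labels give no strain, age or tumour stage and no number of animals behind a library, so p-values measure the spread between libraries, which may be technical. Each library counted unique molecular identifiers (UMIs, 1 per captured RNA molecule) at the 3' ends of transcripts in single cells.

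The pathway is regulated as a unit. When sterol in the membrane of the endoplasmic reticulum is low, SCAP escorts SREBP2 to the Golgi, where proteases release the active factor, and the genes of cholesterol synthesis and lipoprotein uptake are transcribed together. When sterol is plentiful, INSIG proteins hold SCAP back, and oxysterols activate the LXR receptors, which drive the exporters ABCA1 and ABCG1 and the ubiquitin ligase MYLIP. Macrophages use both arms heavily, because they take up lipoproteins and cell debris and must store or export the sterol they cannot degrade.

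The stretches of 250 bases before the annotated transcription start were examined because the synthesis genes moved together in these data. RefSeq promoters on GRCm38.p6 were found for 26 of the 32 members, 16 of them synthesis genes. Searched on both strands were TCACNCCAC, which covers a classical sterol regulatory element, CCAAT, the box bound by NF-Y, and the LXR DR4 element, 2 copies of AGGTCA spaced by 4 bases. CCAAT was present for 15 of 16 synthesis genes (93.8%), for 7 of the other 10 members, for 10133 of 27025 genes with a promoter (37.5%) and for 40.8% of the 10045 of these that were tested in macrophage-like cells. TCACNCCAC was present for Hmgcs1 alone among the members and for 331 of the 27025 genes, and the DR4 element for no member and for 4 of the 27025. Only these exact letters were searched, and elements with variant letters were not counted. The exact DR4 string was found for 0 of the 10045 tested genes, so its absence cannot show that a member lacks an LXR element. Genes with several annotated starts were counted once if any start carried the motif. Shown are 3 synthesis genes with lower levels in KO macrophage-like cells (Hmgcs1, Mvd, Sc5d), 1 synthesis gene that did not pass the test (Ebp) and the exporter that rose (Abca1), each 5′ to 3′ on the gene's own strand, with TCACNCCAC and CCAAT matches on either strand in capitals (CCAAT reads ATTGG on the opposite strand).
Hmgcs1: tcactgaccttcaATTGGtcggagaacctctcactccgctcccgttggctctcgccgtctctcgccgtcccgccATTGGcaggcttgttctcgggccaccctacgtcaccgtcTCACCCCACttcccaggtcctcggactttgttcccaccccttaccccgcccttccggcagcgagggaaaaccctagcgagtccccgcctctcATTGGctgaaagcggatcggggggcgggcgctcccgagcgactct
Mvd: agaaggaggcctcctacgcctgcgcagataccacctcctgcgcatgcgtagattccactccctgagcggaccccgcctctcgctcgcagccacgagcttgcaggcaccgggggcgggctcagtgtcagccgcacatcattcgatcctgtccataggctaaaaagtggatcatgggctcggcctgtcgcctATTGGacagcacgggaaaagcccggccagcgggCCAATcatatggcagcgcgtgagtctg
Sc5d: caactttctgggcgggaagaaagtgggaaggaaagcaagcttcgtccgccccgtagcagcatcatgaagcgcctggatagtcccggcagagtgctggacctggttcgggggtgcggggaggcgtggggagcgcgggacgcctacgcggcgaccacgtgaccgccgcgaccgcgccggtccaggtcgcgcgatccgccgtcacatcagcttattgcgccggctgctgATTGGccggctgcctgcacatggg
Ebp: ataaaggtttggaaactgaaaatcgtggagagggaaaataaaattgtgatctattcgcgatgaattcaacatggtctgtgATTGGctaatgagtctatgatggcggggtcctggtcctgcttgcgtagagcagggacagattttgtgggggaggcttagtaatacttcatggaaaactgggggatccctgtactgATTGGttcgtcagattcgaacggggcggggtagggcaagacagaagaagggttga
Abca1: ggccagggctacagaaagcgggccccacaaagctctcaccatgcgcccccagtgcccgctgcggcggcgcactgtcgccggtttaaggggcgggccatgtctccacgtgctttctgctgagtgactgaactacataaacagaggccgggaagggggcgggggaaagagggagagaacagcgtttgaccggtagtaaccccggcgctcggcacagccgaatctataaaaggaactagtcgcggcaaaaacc
They lie at chr13:119690101-119690350 (plus strand), chr8:122443423-122443672 (minus), chr9:42264301-42264550 (minus), chrX:8193513-8193762 (minus) and chr4:53159896-53160145 (minus). Hmgcs1 held 3 CCAAT matches, 237, 176 and 45 bases before the start, and 1 TCACNCCAC match 137 bases before it. Mvd held 2 CCAAT matches, 60 and 27 bases before the start, and Sc5d 1 at 24 bases. Ebp, whose level did not follow the others, also held 2, and Mvk, Ggps1 and Tm7sf2, which did not pass, held the box too. Acat2, the searched synthesis gene without a CCAAT match, fell. The presence of the box thus did not separate genes that fell from those that did not. Abca1 held neither TCACNCCAC nor CCAAT in this window. A match describes letters only and shows no binding.

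Marker genes sorted the cells of each library into classes, named as like a cell type because they rest on markers alone. Macrophage-like cells were the largest class with 5901, 6217, 10854 and 5816 cells in WT 1, WT 2, KO 1 and KO 2, and their UMIs were summed per library to between 66449079 and 98265655. KO 1 stood apart by its 17207 cells and a median of 6052 UMIs per cell, against 8664 to 9498 cells and 8308 to 12133 UMIs elsewhere. Pairs of libraries shared 21 to 49 cell barcodes. Ptprc, which encodes CD45, was detected in each of the 7 classes tested. Cells with at least 3 UMIs of epithelial, collagen or endothelial markers and no Ptprc UMI were set apart as not immune. They numbered 220, 264, 66 and 131 in WT 1, WT 2, KO 1 and KO 2. T cell markers were scarce in macrophage-like cells and higher in KO, with all 6 detected in each library and a sum of 19.1 and 12.7 UMIs per 1000000 of the class sum (CPM) against 1.25 and 3.46 in WT. Their part in the results was not tested.

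In macrophage-like cells the genes of cholesterol synthesis were lower in KO along most of the pathway. Of the 19 synthesis genes 14 fell and none rose, with a median log2 difference of -0.99 against -0.01 over the 12611 genes tested, of which 5.07% fell and 6.31% rose. With scaling to total UMIs in place of TMM factors the median of all genes was -0.14, 581 genes rose and 1252 fell (796 and 640 with TMM), and 16 synthesis genes fell. Over all 32 members 17 fell and 2 rose. The members that rose were Abca1, the main cholesterol exporter of macrophages, and Npc2, the soluble lysosomal sterol carrier. Changes are log2, KO minus WT, from edgeR on the summed UMIs, with standard errors, and a gene passes at an adjusted p under 0.05 over all genes tested. Levels are plain CPM and, being counts of 3' ends, need no scaling by transcript length. With 2 libraries against 2, an exact permutation test of a single gene cannot go below p = 0.333.

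**Figure D1:**
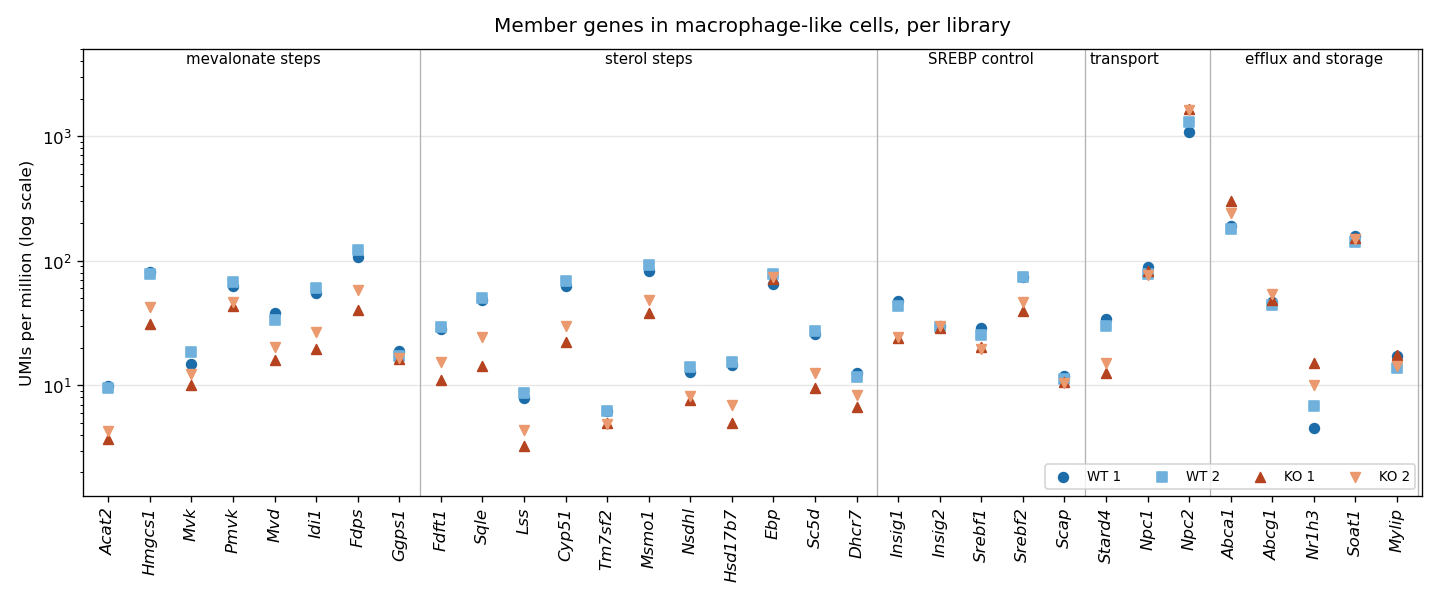
Level of each member in macrophage-like cells, in CPM on a log axis, with 1 point per library and genes ordered by role. Most synthesis genes show both KO points below both WT points, while Ebp, Insig2, Npc1, Soat1 and Mylip show points that overlap. Separate points alone do not mark a change. In plain CPM the median log2 difference of all genes was -0.14, and the share of all genes with separate points is not given. Ggps1 and Scap also separate in plain CPM, with fitted log2 differences of -0.01 and 0.00.

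Among the mevalonate steps 6 of 8 genes fell. Hmgcs1, which condenses acetyl-CoA units into HMG-CoA (chr13:119690379-119708260), was at 80.9 and 78.4 CPM in WT 1 and WT 2 and at 31.1 and 42.3 in KO 1 and KO 2. Both KO libraries lay below both WT libraries, a log2 change of -0.99 ± 0.15 (adjusted p = 0.0114). Idi1, the isomerase that makes the reactive isoprene unit, was at 55.3, 60.6, 19.6 and 26.7 in the same order, 2.30-fold lower in KO (adjusted p = 0.00934). Fdps, which joins isoprene units to farnesyl diphosphate, had the highest WT level of the synthesis genes, 108 and 123 in WT against 40.4 and 58.3 in KO (-1.11 ± 0.20, adjusted p = 0.0296). Acat2, the cytosolic thiolase at the entry of the pathway, was far less abundant, at 9.84 and 9.48 against 3.70 and 4.32, and fell by a similar proportion (-1.15 ± 0.13, adjusted p = 0.00342). Mvd, the decarboxylase, fell by 0.86 on the log2 scale (adjusted p = 0.00967). Pmvk, the phosphomevalonate kinase, was at 62.6, 67.8, 43.3 and 47.0 and fell least (-0.41 ± 0.10, adjusted p = 0.0406). Mvk, the first kinase, was at 14.9 and 18.5 against 10.1 and 12.3 and did not pass (-0.46, adjusted p = 0.111). Ggps1, which diverts farnesyl diphosphate towards protein prenylation and away from sterols, had a log2 difference of -0.01 ± 0.09 (adjusted p = 0.956). The calls of Hmgcs1 and Fdps were lost without WT 1 (adjusted p = 0.0821 and 0.151) and without WT 2 (0.0625 and 0.173), and that of Pmvk without WT 2 (0.0889) and without KO 1 (0.209). Mvk passed without WT 1 (0.0341) and without KO 2 (0.0338).

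Of the 11 sterol steps 8 fell. Cyp51, the sterol demethylase, was at 62.7, 69.0, 22.4 and 30.1 CPM in WT 1, WT 2, KO 1 and KO 2, 2.31-fold lower in KO (-1.21 ± 0.16, adjusted p = 0.00813). Sc5d, the desaturase near the end of the route, was at 26.0, 27.3, 9.60 and 12.5 (-1.15 ± 0.14, adjusted p = 0.00473). Hsd17b7, a ketoreductase, was at 14.5, 15.4, 4.96 and 7.0 (-1.20 ± 0.17, adjusted p = 0.00979). For these 3 genes both KO libraries lay far below both WT libraries, and KO 1 was the lowest. Fdft1 (squalene synthase, -1.0), Lss (lanosterol synthase, -1.0), Msmo1 (the methyl sterol oxidase, -0.90), Nsdhl (which acts with it, -0.63) and Dhcr7 (which makes cholesterol in the last step of one branch, -0.58) also fell, with adjusted p between 0.0123 and 0.035. Sqle, the rate-limiting squalene epoxidase, had the largest fitted decrease of the synthesis genes but did not pass. It was at 48.6 and 49.9 in WT, 14.2 in KO 1 and 24.6 in KO 2, so the KO libraries lay far apart (-1.22 ± 0.29, adjusted p = 0.0746, and 0.000464 without KO 1 and 1.01e-06 without KO 2). Tm7sf2, a sterol reductase expressed at 4.88 to 6.28, had a log2 difference of -0.22 (adjusted p = 0.255). Ebp, the sterol isomerase, departed from its neighbours. It was at 65.5, 77.9, 71.0 and 74.0, and the genotypes overlapped (0.14 ± 0.12, adjusted p = 0.49). The calls of Fdft1 and Dhcr7 were lost without WT 1 (adjusted p = 0.0632 and 0.0811) and without WT 2 (0.0686 and 0.0525), and that of Dhcr7 also without KO 1 (0.137) and with the replicate number as a block.

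Among the genes that control SREBP, 2 of 5 fell. Insig1, the retention protein that is itself an SREBP target, was at 47.2 and 43.7 CPM in WT and at 24.2 and 24.4 in KO (-0.78 ± 0.09, adjusted p = 0.0034). Srebf2, which encodes SREBP2 and is also driven by it, was at 73.9 and 74.0 against 39.7 and 46.8 (-0.65 ± 0.11, adjusted p = 0.0112). The KO libraries nearly coincided for Insig1 and the WT libraries for Srebf2, and for both genes the KO libraries lay well below the WT libraries. Srebf1, which encodes the factor more closely tied to fatty acid synthesis, was at 28.6 and 25.4 against 20.2 and 19.8 and did not pass (-0.31 ± 0.09, adjusted p = 0.0666). The escort Scap (0.00) and Insig2 (0.11), the form not induced by SREBP2, had adjusted p of 0.989 and 0.455.

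The transport genes split. Stard4, a soluble sterol carrier and SREBP2 target, was at 34, 29.9, 12.6 and 15 CPM in WT 1, WT 2, KO 1 and KO 2 (-1.09 ± 0.11, adjusted p = 0.00277). Npc2, which hands cholesterol to NPC1 in lysosomes, was at 1078 and 1298 in WT and at 1667 and 1622 in KO, a level far above that of any other member (0.59 ± 0.13, adjusted p = 0.0303). Npc1 itself was at 89.7, 78.2, 83.2 and 76.2, with overlapping genotypes (0.05, adjusted p = 0.776). The Npc2 call was lost without WT 1 (adjusted p = 0.0735), without KO 1 (0.0609) and with the replicate number as a block (0.0534).

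Of the 5 efflux and storage genes 1 rose and none fell, with a median log2 difference of 0.31. Abca1 (chr4:53030787-53159895), which loads cholesterol onto apolipoprotein particles, was at 189 and 179 CPM in WT, 301 in KO 1 and 240 in KO 2, 1.60-fold higher in KO (0.68 ± 0.12, adjusted p = 0.0137). Nr1h3, which encodes LXR alpha, was the least abundant of the group at 4.56 and 6.78 in WT against 15.1 and 10.2 in KO. Both KO libraries lay above both WT libraries, but the spread was wide and it did not pass (1.27 ± 0.29, adjusted p = 0.0603, and 0.0337 without WT 2 and 0.0397 without KO 2). Abcg1, the exporter to mature lipoprotein particles, was at 46.5, 44.1, 48.5 and 54.3 (0.31 ± 0.09, adjusted p = 0.0794). Soat1, which esterifies cholesterol for storage (0.13), and Mylip, which degrades lipoprotein receptors (0.15), overlapped between genotypes, with adjusted p of 0.375 and 0.489.

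Some calls changed when cells with cell cycle transcripts or single libraries were left out. The share of macrophage-like cells with at least 3 cell cycle UMIs was 19.4% and 21.6% in WT and 9.89% and 15% in KO. Among cells without a cell cycle UMI 10 synthesis genes fell, and the calls of Fdps, Nsdhl, Dhcr7, Pmvk, Abca1 (0.42, adjusted p = 0.0834) and Npc2 (0.39, adjusted p = 0.147) were lost. Without WT 2, 9 of the 19 synthesis genes fell, and without WT 1, KO 1 or KO 2 11, 13 or 16 fell. The part of cell cycle activity in the result was not tested further.

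Genes of neighbouring pathways showed which parts of lipid metabolism moved alongside. The counts below stand beside 5.07% of all 12611 genes tested that fell and 6.31% that rose. Of 16 genes of fatty acid synthesis and desaturation 8 fell and none rose, with a median of -0.59. The largest changes were in the desaturases Fads2, at 8.71 and 10.9 CPM in WT against 0.896 and 1.73 in KO (-2.80 ± 0.34, adjusted p = 0.0114), Scd1 (-2.10) and Scd2 (-1.41), and in the elongase Elovl6 (-1.37). None of 10 genes of SREBP processing and turnover passed, none of 10 that use isoprenoids outside sterol synthesis and none of 5 tested for oxysterols. Of 8 genes of esterification and lipid droplets 3 rose. These were Hilpda, an inhibitor of droplet lipolysis, at 381 and 335 in WT against 640 and 496 in KO (0.79 ± 0.13, adjusted p = 0.0126), Plin2, which coats droplets (0.59), and Nceh1, a cholesteryl ester hydrolase (0.48). Of 13 genes of lipoprotein and lysosomal sterol handling 3 rose and 1 fell. Lrpap1, a chaperone of lipoprotein receptors (0.64), Gramd1b, which moves sterol from the plasma membrane (0.52), and Lipa, the lysosomal acid lipase (0.36), were higher, and the lipoprotein receptor Scarb1 was lower (-0.54). Of 9 genes of LXR and its targets 2 rose, Smpdl3a (0.54) and Nr1h2 (0.40), but the median of the list was 0.01. The others did not pass and ranged from -0.79 (Lpl) to 0.03 (Abcg2).

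Macrophage-like cells are a mixture, so the members were also followed within 9 subclusters, made without the members or the related lists and described by their leading genes. The subclusters differed in size between genotypes. Subcluster 2 (Ccl17, Ear2, Chil3) made up 37.4% and 42.9% of this class in WT against 3.89% and 7.48% in KO, and subcluster 1 (Cxcl3, Inhba) 5.12% and 7.05% against 30.3% and 31.7%. Other genes that differ by genotype helped to define them, so the sizes are given as a description. In WT the summed level of the 19 synthesis genes was highest in subcluster 2, at 957 and 1002 CPM, and lowest in subcluster 8 (Mmp13, Gpnmb), at 278 and 300. Other subclusters also differed in share. Subcluster 8 made up 10.5% and 12.3% in WT against 1.67% and 3.20% in KO, and subcluster 3 (Ly6i, Cxcl9), with sums of 879 and 990 in WT, made up 1.97% and 3.01% against 19% and 18.6%.

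**Figure D2:**
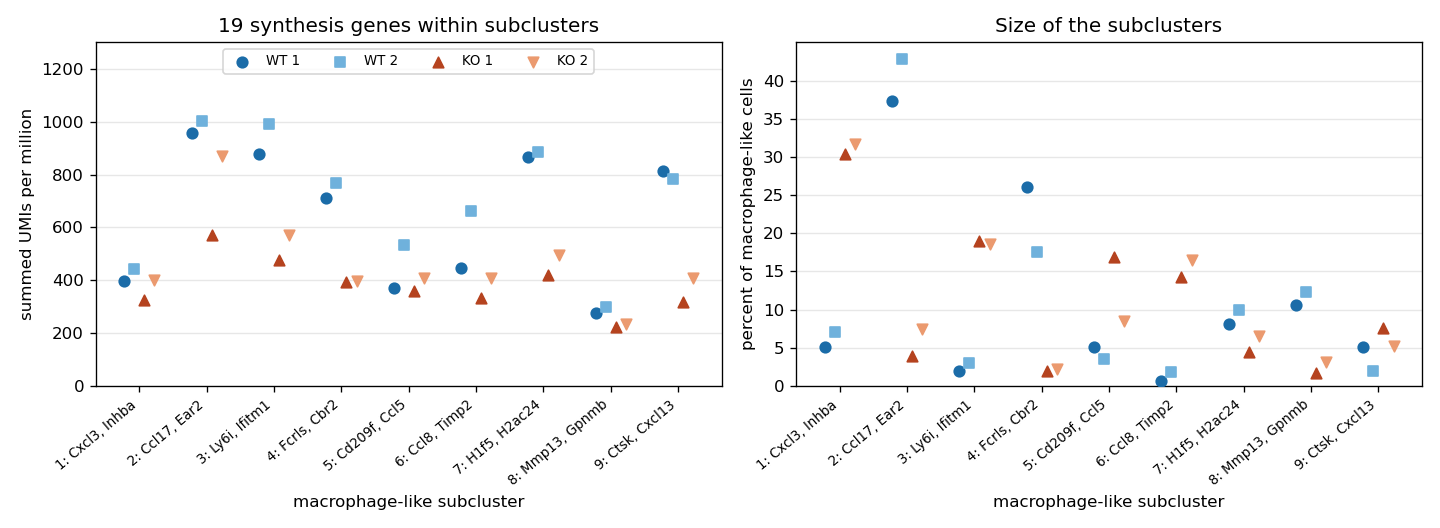
Summed CPM of the 19 synthesis genes (left) and percent of macrophage-like cells (right) in 9 subclusters, named by number and their leading genes, with 1 point per library. In the left panel both KO points lie below both WT points in subclusters 2, 3, 4, 6, 7, 8 and 9 and overlap the WT points in subclusters 1 and 5.

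Cell cycle genes such as Top2a and Nusap1 led subcluster 7, where 15 synthesis genes fell. The sum there was 865 and 884 CPM in WT against 419 and 497 in KO, and the median change was -0.96, where 5.59% of 10871 genes fell and 8.46% rose. The largest decreases were in Cyp51 (-1.38), Hsd17b7 (-1.27), Hmgcs1 (-1.17), Fdps (-1.11), Acat2 (-1.09), Mvd (-1.03), Msmo1 (-1.02), Sqle (-1.0) and Sc5d (-0.99), while Abca1 (1.06), Npc2 (0.82) and Abcg1 (0.50) rose. In subcluster 3 and subcluster 4 (Fcrls, Cbr2) 8 synthesis genes fell in each, against 0.932% and 0.539% of all genes tested, with medians of -0.90 and -0.96. Those of subcluster 3 were Lss (-1.42), Idi1 (-1.33), Cyp51 (-1.25), Fdft1 (-1.10), Sc5d (-1.06), Fdps (-1.04), Msmo1 (-0.90) and Pmvk (-0.76), beside Insig1 (-1.13). Those of subcluster 4 were Hmgcs1 (-1.39), Sqle (-1.37), Idi1 (-1.34), Cyp51 (-1.19), Sc5d (-1.16), Msmo1 (-1.10), Fdps (-1.03) and Mvd (-0.96), beside Insig1 (-1.07) and Srebf2 (-0.89). Both sets span early and late steps of the route. Abca1 rose in subcluster 3 (0.91, where 0.33% of genes rose) and had a difference of 0.26 in subcluster 4, which did not pass. Within subclusters 1 and 2 and subcluster 8, a single synthesis gene fell in each (Sc5d, Hsd17b7 and Sqle), with medians of -0.38, -0.49 and -0.44 and backgrounds of 2.17%, 0.246% and 0.214%. In subcluster 1 Stard4 also fell (-0.68) and Nr1h3 rose (1.5, where 3% of genes rose). Subcluster 2 was spread in KO, at 572 in KO 1 and 870 in KO 2.

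In subcluster 5 (Cd209f, Lyve1), none of the 19 synthesis genes passed, and the sums overlapped, at 371 and 534 in WT against 359 and 409 in KO (median -0.02), although 7.24% of its genes fell and 8.45% rose. Its Npc2 (0.85) and Nr1h3 (0.98) rose and Mylip fell (-0.57). Subcluster 6 (Ccl8, Folr2) had a median of -0.81 with no call, where 0.322% of genes fell, on 37 and 114 cells in WT. Subcluster 9 had a median of 872 UMIs per cell and leading genes of other cell types, and 4 of its 10 tested synthesis genes fell (background 0.905%), namely Sqle (-2.36), Cyp51 (-1.93), Hmgcs1 (-1.85) and Fdps (-1.56). When the subclusters were given equal weight, 9 synthesis genes fell (limma on log2 of CPM plus 1), and Abca1 no longer passed (0.11, adjusted p = 0.627). The subclusters were not tested against each other.

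Outside macrophage-like cells fewer members passed. In monocyte-like cells (314 to 812 cells per library) 3 members rose, where 3.86% of 9734 genes rose, and none fell, where 0.925% did. Npc2 was at 944, 1058, 1546 and 1615 CPM in WT 1, WT 2, KO 1 and KO 2 (0.75 ± 0.11, adjusted p = 0.00347), Abca1 at 38.3, 31.7, 64.4 and 57.8 (0.89 ± 0.17, adjusted p = 0.018) and Abcg1 at 55.4, 45.5, 77.6 and 79.4 (0.72 ± 0.15, adjusted p = 0.0244). The KO libraries lay above the WT libraries for all 3. The calls of Abca1 and Abcg1 were lost without KO 1 (adjusted p = 0.17 and 0.171) and without KO 2 (0.0517 and 0.123), and that of Abcg1 also without WT 2 (0.0601) and with DESeq2. All 10 macrophage markers were detected in these sums, at 1736 and 1690 CPM in WT against 2563 and 2136 in KO. Markers of cells that are not immune summed to 240 and 690 in WT against 192.5 and 369 in KO. In macrophage-like cells these summed to 26.3 to 31.7. The part of either marker set in the result was not tested. The synthesis genes had a median of -0.45. At an unadjusted p under 0.05, 8 of 32 members were lower and 4 higher, where 7.65% and 10.2% of all genes were. DESeq2 called none lower, but the count was 4 with no filter on low counts, 3 with the replicate number as a block and 2 with scaling to total UMIs. The KO libraries differed here, with a summed synthesis level of 521 in KO 1 and 705 in KO 2 against 800 and 781 in WT.

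**Figure D3:**
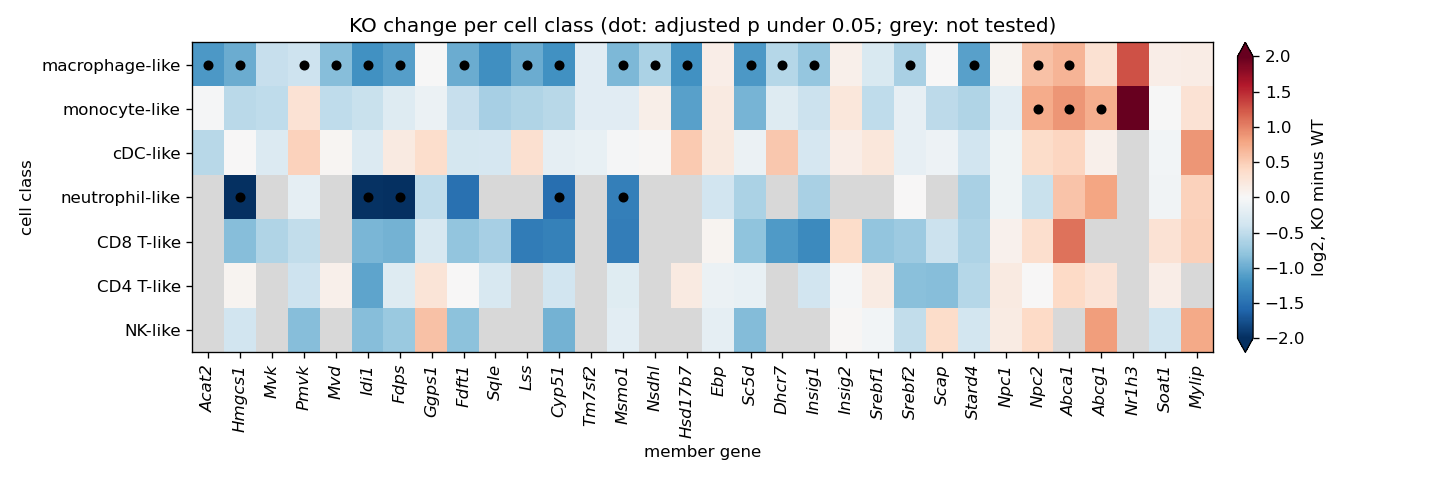
Log2 change, KO minus WT, of each member in 7 cell classes, with the colour scale ending at -2 and 2, dots where the adjusted p was under 0.05 and grey where a gene was not tested. Macrophage-like cells carry 19 dots, neutrophil-like cells 5, monocyte-like cells 3 and the other classes none.

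Dendritic cells showed another picture. In cDC-like cells (152 to 229 per library) none of 31 tested members passed, where 2.18% of 8977 genes did. The edgeR test found 3 members higher and none lower at an unadjusted p under 0.05, where 7.47% and 6.38% of all genes were, and DESeq2 called none of the 11 members to which it gave an adjusted p. The median of the synthesis genes was 0.00. Idi1 was at 113, 111, 67.4 and 114 CPM and Fdps at 176, 147, 116 and 240, with KO 1 the lowest and KO 2 the highest library for both.

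In neutrophil-like cells (75 to 334 per library) 5 synthesis genes fell, on few UMIs, where 8.02% of 4777 genes fell. Fdps gave 58, 46, 9 and 3 UMIs in WT 1, WT 2, KO 1 and KO 2, or 118, 129, 14.7 and 21.0 CPM (-2.85 ± 0.42, adjusted p = 0.00132). Hmgcs1 gave 53, 30, 11 and 4 UMIs (-2.17 ± 0.41, adjusted p = 0.00436). Idi1 (-1.97), Cyp51 (-1.51) and Msmo1 (-1.36) also fell, and Idi1 had 0 UMIs in KO 2, which allows up to 21.0 CPM (3 UMIs of its sum). The KO libraries lay below the WT libraries for all 5. DESeq2 called 1 of them and gave no adjusted p for 11 of 19 tested members, and leaving out 1 library at a time left 2 to 4 calls. Cyp51 was lost without any 1 library (adjusted p = 0.0704 to 0.207), Hmgcs1 without KO 1 (0.107), Idi1 without WT 1 (0.155) and Msmo1 without WT 2 (0.075) and without KO 1 (0.242). RNA of other cells was higher in these KO sums. All 10 macrophage markers were detected and summed to 1720 and 1776 CPM in WT against 2654 and 1886 in KO, and the T cell markers summed to 8.14 and 8.42 against 88.4 and 76.8. The part of that RNA in the result was not tested.

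Lymphoid classes gave no call. In CD8 T-like cells (30, 70, 606 and 262 cells) none of 25 tested members passed, where 0.528% of 7385 genes did, while 8 were lower and none higher at an unadjusted p under 0.05, where 4.1% and 5.29% of all genes were. Cyp51 was at 94.1, 58.9, 25.7 and 27.6 CPM (-1.35 ± 0.33, adjusted p = 0.0985), and the synthesis genes had a median of -0.83. Their summed level was 646 and 571 in WT against 351 and 353 in KO. All 10 macrophage markers were detected in these sums too, at 589 and 323 in WT against 813 and 606 in KO, and their part in the result was not tested. In CD4 T-like and NK-like cells none of 24 and 20 members passed (background 0.71% and 0.532%), and the synthesis medians were -0.15 and -0.78. At an unadjusted p under 0.05, 3 members were lower and none higher in CD4 T-like cells (2.85% and 3.79% of all genes), and 2 lower and none higher in NK-like cells (5.09% and 6.74%). DESeq2 called none in the 3 lymphoid classes, with no adjusted p for 15, 1 and 11 members.

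Whether the KO change differed between classes was tested directly. Against monocyte-like cells 5 members passed, all with a higher KO minus WT value there, where 0.562% of 12623 genes differed in that direction. They were Fdps (difference 0.87 ± 0.14, adjusted p = 0.00232), Idi1 (0.76), Pmvk (0.71), Cyp51 (0.68) and Msmo1 (0.67). This count fell to 0 without KO 1 and to 1 without KO 2, and was 9 without WT 1. Against cDC-like cells 10 members passed in the same direction, where 0.658% of 12619 genes did. Fdps changed by -1.11 in macrophage-like and 0.18 in cDC-like cells (difference 1.26 ± 0.17, adjusted p = 7.44e-07). Hsd17b7 (1.73), Cyp51 (1.07), Sc5d (1.06), Hmgcs1 (1.01), Sqle (0.96), Idi1 (0.94), Mvd (0.94), Pmvk (0.90) and Msmo1 (0.89) were the others, and 6 passed without KO 2. No efflux or transport gene passed in either test. Against CD8 T-like cells no member passed, where 1.53% of 12415 genes did, so a difference between the classes was not shown.

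The members also differed in level between classes, tested over all 4 libraries with the library as a block, so each level averages WT and KO. Abca1 was highest in macrophage-like cells. Its log2 level relative to them was -1.43 in neutrophil-like, -2.31 in monocyte-like, -3.90 in CD4 T-like, -4.29 in CD8 T-like and in cDC-like and -4.53 in NK-like cells, each passing (edgeR). Nr1h3 stood between -4.27 and -2.66 in lymphoid and cDC-like cells. In cDC-like cells many synthesis genes were higher and the efflux genes lower. There 10 members were higher, where 21.9% of 9520 genes were, and 9 lower, where 23.5% were. Pmvk (1.47 ± 0.14), Idi1 (1.39) and Fdps (1.12), with the regulator Srebf2 (0.92), were the members most raised, while Abca1, Nr1h3, Npc1 (-1.35), Soat1 (-1.10), Npc2 (-1.04) and Insig2 (-0.91) were the most lowered. The gap in synthesis genes was wider in KO. Their summed level in cDC-like cells was 1001 and 910 CPM in WT, against 756 and 810 in macrophage-like cells. In KO it was 772 and 1173 against 374 and 466.

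T and NK classes were lower for many members. CD4 T-like cells had 3 members higher and 15 lower (28.8% and 28.1% of all genes), CD8 T-like cells 2 and 12 (29.7% and 29.3%) and NK-like cells 1 and 12 (24.2% and 25.2%). Soat1 stood at -2.07, -1.79 and -2.19, Insig1 at -1.10, -1.41 and -2.02 and Sqle at -1.46, -0.88 and -1.17 relative to macrophage-like cells in these 3 classes, in that order. Npc2 stood at -1.59, -2.33 and -2.33, Npc1 at -1.61, -1.38 and -0.40, Abcg1 at -0.84, -2.05 and -1.0 and Mvd at -0.99, -1.68 and -1.14. The higher members were Ggps1 (0.91), Scap (0.72) and Ebp (0.30) in CD4 T-like, Scap (1.01) and Stard4 (0.67) in CD8 T-like and Mylip (0.87) in NK-like cells. Monocyte-like cells were nearest to macrophage-like cells, with 2 members higher, Cyp51 (0.64) and Srebf2 (0.43), and 2 lower, Abca1 and Npc1 (-0.71), against 15.6% and 15.4% of all genes. In neutrophil-like cells 3 were higher, Mylip (1.45), Sc5d (1.31) and Abcg1 (0.97), and 3 lower, Nr1h3 (-1.52), Abca1 and Insig2 (-1.02), against 18% and 19.4%. Scaling to total UMIs gave 7 members in monocyte-like and 10 in neutrophil-like cells.

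Members were also compared between macrophage-like cells with and without cell cycle transcripts. With at least 1 cell cycle UMI against 0, 13 of 32 members passed, where 37.7% of 12280 genes did, so members passed about as often as other genes. Acat2 was at 12.4, 11.5, 4.22 and 4.82 CPM in cycling and 6.94, 6.70, 3.28 and 3.68 in other cells of WT 1, WT 2, KO 1 and KO 2 (0.55 ± 0.09, adjusted p = 0.00107). It was the member most raised, followed by Stard4 (0.22), Tm7sf2 (0.22), Dhcr7 (0.22), Idi1 (0.19) and Ebp (0.18). Lower were the efflux and storage genes Abcg1 (-0.45), Mylip (-0.36) and Soat1 (-0.27) and the lysosomal carriers Npc2 (-0.24) and Npc1 (-0.16). The call count was 8 without WT 1. Set at 3 or more cell cycle UMIs against 0, a limit added after the data were seen, 18 members passed, where 50.6% of 12044 genes did, and several differences were larger. Acat2 (0.87), Stard4 (0.43), Fdps (0.37) and Ebp (0.37) were higher, and Abcg1 (-0.69), Abca1 (-0.65, adjusted p = 0.016), Mylip (-0.62), Npc2 (-0.46) and Soat1 (-0.42) lower. In both kinds of cells the KO libraries stayed below the WT libraries for Acat2. Cells with more UMIs reach a minimum of 1 UMI more easily, and the part of depth was not tested.

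Set against each other, the sums of the 2 arms gave a ratio per library. In macrophage-like cells the 19 synthesis genes summed to 756, 810, 374 and 466 CPM in WT 1, WT 2, KO 1 and KO 2, and the 5 efflux and storage genes to 415, 384, 534 and 467. The log2 ratio of synthesis to efflux was 0.87 and 1.08 in WT and -0.51 and 0.00 in KO. Where this ratio crosses 0 depends on which genes were listed and how many, so the crossing itself has no meaning. In neutrophil-like cells the ratios were 1.25 and 1.40 against -0.55 and -0.33, and in monocyte-like cells 1.58 and 1.85 against 0.77 and 1.26. In CD8 T-like cells they were 3.36 and 3.20 against 1.71 and 2.17, and in CD4 T-like cells 2.62 and 2.65 against 2.18 and 2.15. The genotypes did not overlap in these 5 classes. These classes share the same 4 libraries, and 2 against 2 cannot give an exact permutation p below 0.333. The genotypes overlapped in cDC-like cells, at 2.96 and 2.91 against 2.56 and 3.18, and in NK-like cells, at 1.69 and 3.53 against 1.55 and 2.00. Macrophage markers summed higher in both KO libraries than in both WT libraries in all 7 classes. In CD4 T-like cells they were at 406 and 443 CPM in WT against 837 and 624 in KO. In NK-like cells they were at 330 and 384 against 861 and 586. The part of macrophage RNA in the ratios was not tested. Abca1 and Soat1 made up most of the efflux and storage sum in macrophage-like cells, and no test was made on the sums.

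**Figure D4:**
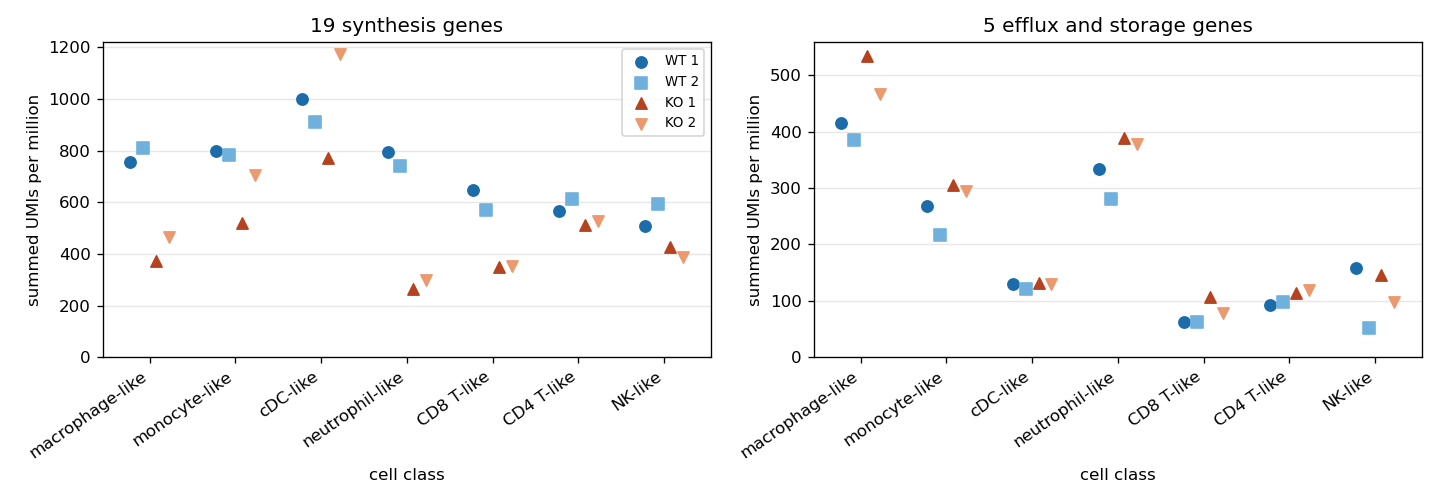
Summed CPM of the 19 synthesis genes (left) and of the 5 efflux and storage genes (right) in 7 cell classes, with 1 point per library and both axes from 0. In macrophage-like cells synthesis was 756 and 810 in WT against 374 and 466 in KO, and efflux and storage 415 and 384 against 534 and 467.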

How the data were processed

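Single-cell 3' libraries of CD45+ tumour cells were analysed from the UMI count matrices that the authors deposited, whole numbers per gene and cell barcode with no normalization, aligned to mm10. The version of Cell Ranger is 5.0.0 per the file headers, while the submitters' processing notes name 5.0.1, beside Seurat 3.15. Upstream cell calling is not described. Although genomic DNA is given as the molecule in the labels, the values are UMI counts. Free RNA, unequal depth and cell doublets can shift such counts.

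Barcodes were kept if they had 200 or more genes and no more than 20% mitochondrial UMIs (8664, 8815, 17207 and 9498 in WT 1, WT 2, KO 1 and KO 2) and gated into classes by UMIs of marker genes alone, none a member. A macrophage-like cell needed at least 5 UMIs of macrophage markers, 15 per 10000 UMIs, and at most 1 UMI of T, NK or B cell markers each. Limits were set after the data were seen. Of the cells kept 1432, 1376, 3762 and 2077 stayed ungated, among them 198, 236, 1424 and 473 with macrophage markers, and 231 to 315 macrophage-like cells per library lay near the lower limit. Scrublet marked at most 1 cell per library, too few to be credible, so doublets were not removed. UMIs were summed per class and library, for classes with at least 20 cells in each, and KO was tested against WT with edgeR 4.0.16 (filterByExpr, TMM, robust quasi-likelihood test) in R 4.3.3, with Benjamini-Hochberg adjustment over all genes tested and a threshold of 0.05. Differences between classes were tested as interactions with the library as a block. Subclusters came from Leiden clustering (scanpy 1.11.5, igraph 0.11.9, resolution 0.5) without members and related lists, a step added after the data were seen. Alternatives used DESeq2 1.42.0, limma 3.58.1 and other filters, scalings and gates. Steps were tested on simulated data. Positions are from GENCODE on mm10 and promoters from RefSeq on GRCm38.p6. The members and lists were chosen with earlier results of these data known. All members are named in macrophage-like cells, elsewhere those that passed, up to 10 per comparison by size of change, and up to 4 per related list. Members and other genes named beyond this rule were chosen after their values were seen. The knocked-out gene is not reported here.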

Additional observations from a re-analysis of the deposited data

Results flagged for a closer look

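The KO change of 5 members in monocyte-like cells differed from that in macrophage-like cells by a test of the difference (log2, monocyte-like minus macrophage-like): 0.71 for Pmvk, 0.76 for Idi1, 0.87 for Fdps, 0.68 for Cyp51 and 0.67 for Msmo1. All 5 are synthesis genes, and no member passed this test without KO 1. The KO change of 10 members in cDC-like cells differed from that in macrophage-like cells by the same test (cDC-like minus macrophage-like). The differences were 1.01 for Hmgcs1, 0.90 for Pmvk, 0.94 for Mvd, 0.94 for Idi1, 1.26 for Fdps, 0.96 for Sqle, 1.07 for Cyp51, 0.89 for Msmo1, 1.73 for Hsd17b7 and 1.06 for Sc5d. With 2 libraries per genotype no library could be examined as an outlier within its group.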

How the results depend on the processing

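No call turned direction in 573 recomputed single values, of which 509 had the same call, 46 lost it and 18 gained it. The sign of a difference was not always kept. In macrophage-like cells 18 synthesis genes had a negative difference, but 17 with DESeq2, in cells thinned to 4000 UMIs and without KO 1. Of 245 recomputed counts 199 stayed within 1.5 times. In macrophage-like cells the count of lower synthesis genes, 14, was 9 with subclusters weighted equally and ranged from 9 to 16 when 1 library was left out, with 9 without WT 2. With subclusters weighted equally Pmvk, Mvd, Fdft1, Lss, Nsdhl, Dhcr7, Npc2 and Abca1 lost their calls and Sqle gained one. Sqle passed with total UMIs, DESeq2, the replicate block and equal weights and without KO 1 or KO 2. Higher efflux and storage genes numbered 1, but 2 with total UMIs, 3 with DESeq2, 2 in cells thinned to 4000 UMIs, 2 with the highest Scrublet scores left out, 0 without cells with a cell cycle UMI, 0 with equal weights and 1 to 2 when a library was left out. All members higher numbered 2, but 4 with DESeq2, 1 with the replicate block, 0 without cell cycle UMIs, 0 with equal weights and 1 to 3 without 1 library. Scaling to total UMIs moved the median of all genes from -0.01 to -0.14 and the split from 796 higher and 640 lower to 581 and 1252, with 16 synthesis genes lower. Over all genes 199 rose and 159 fell with equal weights, 530 and 332 with the replicate block, 498 and 278 without cell cycle UMIs, 641 and 382 without WT 1 and 510 and 363 without KO 1. With 1 library left out, the lone library of its genotype is assumed to vary like the other pair.

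In the other classes lower members moved from 0 to 2 (total UMIs), 4 (no filter on low counts), 3 (replicate block) and 0 to 1 (1 library left out) in monocyte-like cells and from 5 to 1 (DESeq2) and 2 to 4 (1 library left out) in neutrophil-like cells. They moved from 0 to 1 with no filter and 0 to 2 without 1 library in CD8 T-like cells, from 0 to 1 with no filter, 1 with the replicate block and 0 to 1 without 1 library in CD4 T-like cells, and between 0 and 1 without 1 library in NK-like cells. Higher members moved from 3 to between 1 and 4 in monocyte-like cells without 1 library, from 0 to 1 with no filter and 0 to 1 without 1 library in cDC-like cells, 0 to 1 without 1 library in CD8 T-like cells, and to 1 with no filter and 0 to 2 without 1 library in NK-like cells. Members differing between monocyte-like and macrophage-like cells ranged from 0 to 9 and those for cDC-like cells from 6 to 8 without 1 library. Levels gave 7 members in monocyte-like and 10 in neutrophil-like cells with total UMIs. Cycling cells gave 8 to 13 members without 1 library. Apart from fewer libraries or genes, the cause was not tested.

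The replicate numbers are not said to pair libraries, and same-numbered libraries deviated together with correlations of -0.11 to 0.26 over the 7 classes. With the replicate block 15 synthesis genes were lower in macrophage-like cells. In neutrophil-like cells, where the correlation was -0.11, the crossed replicate block, chosen after seeing the data, gave 5 lower and 0 higher members. Few UMIs in neutrophil-like and lymphoid classes limit what could pass there. The alternative of at least 3 cell cycle UMIs was also chosen after seeing the data.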
